A study of Bos taurus with 8 samples.

Results

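The 40 genes described here make up the autophagy machinery as it was listed for bovine oocytes: the kinase complexes that start an autophagosome, the lipid transfer and membrane proteins that extend it, the enzymes that couple ATG8 proteins to lipid, the ATG8 proteins themselves, receptors that select cargo, and 3 genes of the lysosome. They were matched by gene symbol from a list that was drawn up with earlier results of these data known, and the rule itself uses no measured value. All 40 were found among the 26804 genes of the expression table, and all 40 were among the 13379 genes that were expressed and tested. The oocytes came from multiparous, non-lactating beef cows kept together, Angus by the series description and crossbred by the study's methods, whose follicle growth was synchronised with a progesterone device and stimulated with follicle-stimulating hormone, and the same cows were sampled in both seasons. The summer group holds 4 libraries (A, B, C and E), from oocytes collected by ovum pick-up in August, under seasonal heat. The winter group holds 4 libraries (A, B, D and E), collected in January by the series description and in February by the study's methods.

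Oocytes were stripped of their cumulus cells before RNA extraction. Oocytes of each cow were pooled, and RNA of a pair of cows went into each library, so each p-value measures the spread between pools. Each season was a single collection period, and season and collection cannot be told apart. The study kept oocytes of the better grades, at the germinal vesicle stage, and found a smaller share of the best grade in summer. It does not give the grades in each pool, so oocyte grade and season cannot be told apart either. Values are TPM (transcript abundance scaled for gene length and to a common total), a share of each library's transcripts. TPM keeps no read depth, so the counting error behind each value is unknown. Within such a pool, fewer cells of a type and less RNA per cell cannot be told apart.

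Autophagy encloses cytoplasm in a double membrane, the autophagosome, and delivers it to the lysosome for digestion. A ULK kinase complex starts the process, a class III lipid kinase complex built on BECN1 marks the site with phosphatidylinositol 3-phosphate, and a conjugation system attaches ATG8 proteins (the LC3 and GABARAP subfamilies) to the growing membrane. In the mouse, autophagy is switched on soon after fertilisation, and embryos that lack oocyte-derived Atg5 and receive none from the sperm arrest before the blastocyst. Transcript level is not a measure of autophagic flux, which was not measured in these samples.

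Oocyte markers stood higher in the summer libraries. All 16 genes of an oocyte list, among them GDF9 and the zona pellucida genes, rose at least 2-fold, with a summed level of 14900 to 17200 TPM in summer and 4472 to 11040 TPM in winter, lowest in winter E. Theca and stroma markers summed to 353 to 502 TPM in summer and 665 to 2675 TPM in winter, and 9 of the 12 tested fell. Of 15 cumulus and granulosa markers 1 fell and the rest gave no call. All 15 had negative log2 differences (summer minus winter), with a median of -0.65. Their sum spanned 7800 to 11360 TPM in summer and 9088 to 36650 TPM in winter, with winter E far above the other libraries. Epithelial markers reached 3395 TPM in winter A, against 198 to 660 TPM in summer and 354 to 1086 TPM in the other winter libraries. Leukocyte markers summed to at most 27.2 TPM in summer and 51.1 TPM in winter. Endothelial markers summed to 30.8 to 49.2 TPM in summer and 22.1 to 43.0 TPM in winter, and of the 5 tested 1 rose and 1 fell. Erythrocyte markers summed to 715 to 2820 TPM in summer and 537 to 3851 TPM in winter. Nearly all of that came from the hemoglobin gene HBA, which gave no call. The part of these differences in the results that follow was not tested.

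Summer and winter oocytes differed in 8 of the 40 autophagy genes, and none of the 8 by as much as 2-fold. A gene is said to rise or fall when limma gave an adjusted p under 0.05 across all genes tested. By that rule ATG14, UVRAG, AMBRA1, WIPI2, ATG16L1 and MAP1LC3B rose in summer, and ULK1 and ATG4D fell. The 6 that rose are 15.0% of the list, beside 14.9% of all genes tested, and the 2 that fell are 5.0%, beside 11.9%. The share that rose lay at the background. The 6 rises, 0.38 to 0.86 on the log2 scale, were each smaller than the median rise of the oocyte markers, 1.17. With a 2-fold change also required, limma called 0 members in either direction, against 4.4% of all genes called higher and 5.17% called lower. At an unadjusted p under 0.05, 9 members were higher (22.5%, beside 21.9% of all genes) and 10 lower (25.0%, beside 19.7%). In 8 members every summer library lay above every winter library (20.0%, beside 15.4% of all genes), and in 5 every summer library lay below (12.5%, beside 14.1%). The split depended on scaling: quantile normalization gave 6 higher and 7 lower, beside 17.5% and 12.2% of all genes, and median-ratio scaling gave 6 higher and 6 lower, beside 15.4% and 14% of all genes. It also depended on single libraries, and so did the numbers over all genes. The number that rose was 3 without summer B or winter D, and over all genes 1082 and 1127, against 1995. The number that fell was 4 without summer A, and over all genes 1498, against 1594. With summer B or C, or winter D or E, left out, 1 member fell, and over all genes 889 to 1137. With the library letter added to the limma model as a block, none of the 8 passed the test. Of all genes 1.49% were higher and 2.34% lower in that fit. Summer C and winter D, each alone under its letter, added nothing to the season difference there. Whether the letters pair the libraries is not settled.

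The differences were small and ran both ways. Of the 40 log2 differences (summer minus winter), 17 were positive and 23 negative, with a median of -0.02 beside -0.03 over all genes tested. Their median size without sign was 0.32, beside 0.44 over all genes. For 34 members the 95% interval of the difference lay within 1 log2 unit on either side of 0, and for ULK1, ATG14, UVRAG, WIPI1, ATG4A and GABARAPL1 it reached further. The 40 genes together took 3834 ± 191 TPM in summer and 3965 ± 83.8 TPM in winter (SD, n = 4 each). Of the 40, 12 averaged at least 100 TPM over the 8 libraries, 24 averaged 10 to 100 TPM, and ATG4A, ATG10, ATG2B and TFEB averaged under 10 TPM. All were above 0 in all 8 libraries.

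**Figure D1:**
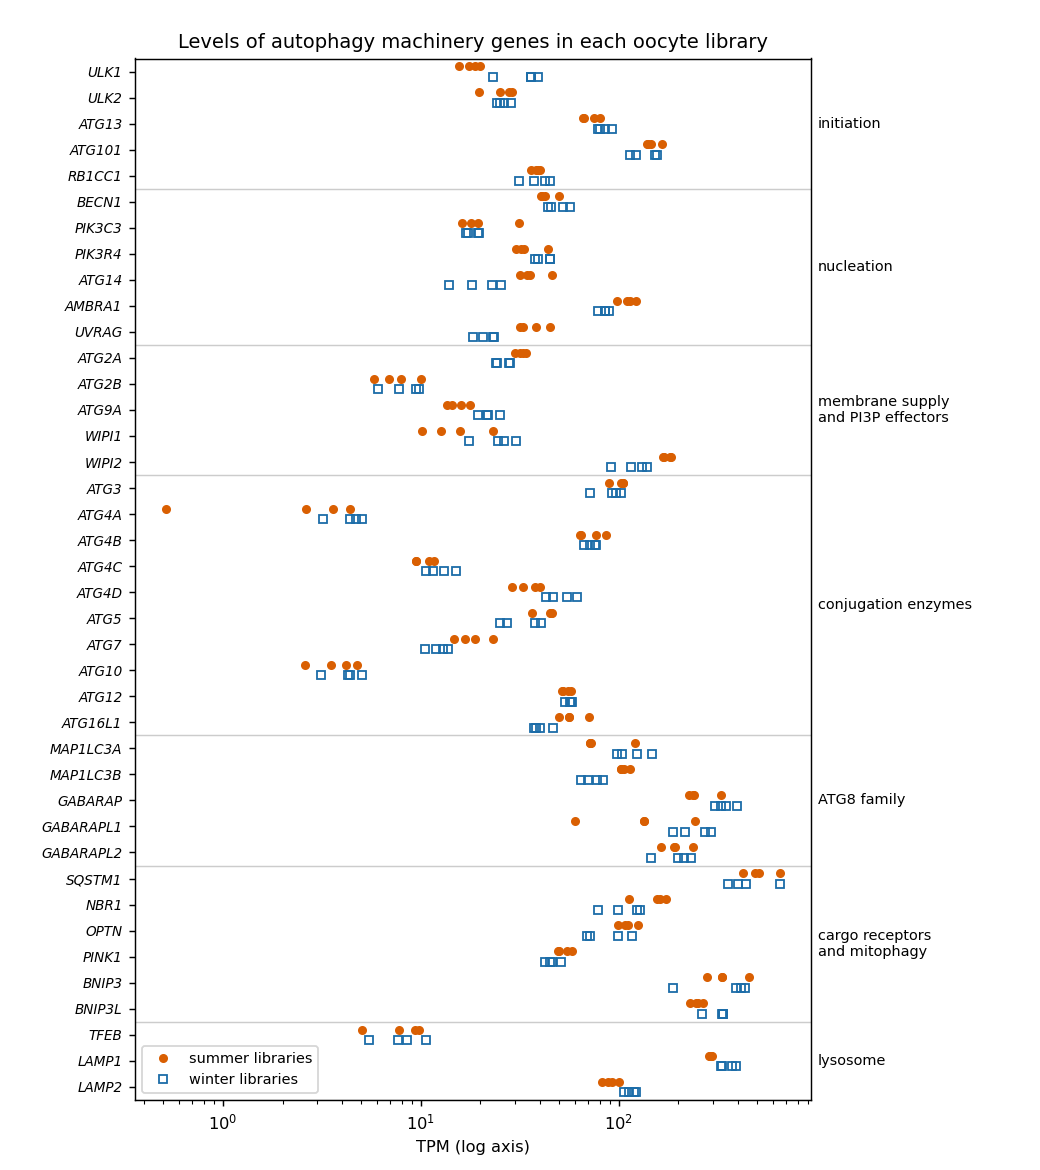
TPM of each of the 40 genes in each library, on a log axis, with the genes ordered by role; points are single libraries, 4 summer and 4 winter. SQSTM1 was the most abundant member, at 490 TPM over the 8 libraries, and ATG4A the least, at 3.56 TPM.

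**Figure D2:**
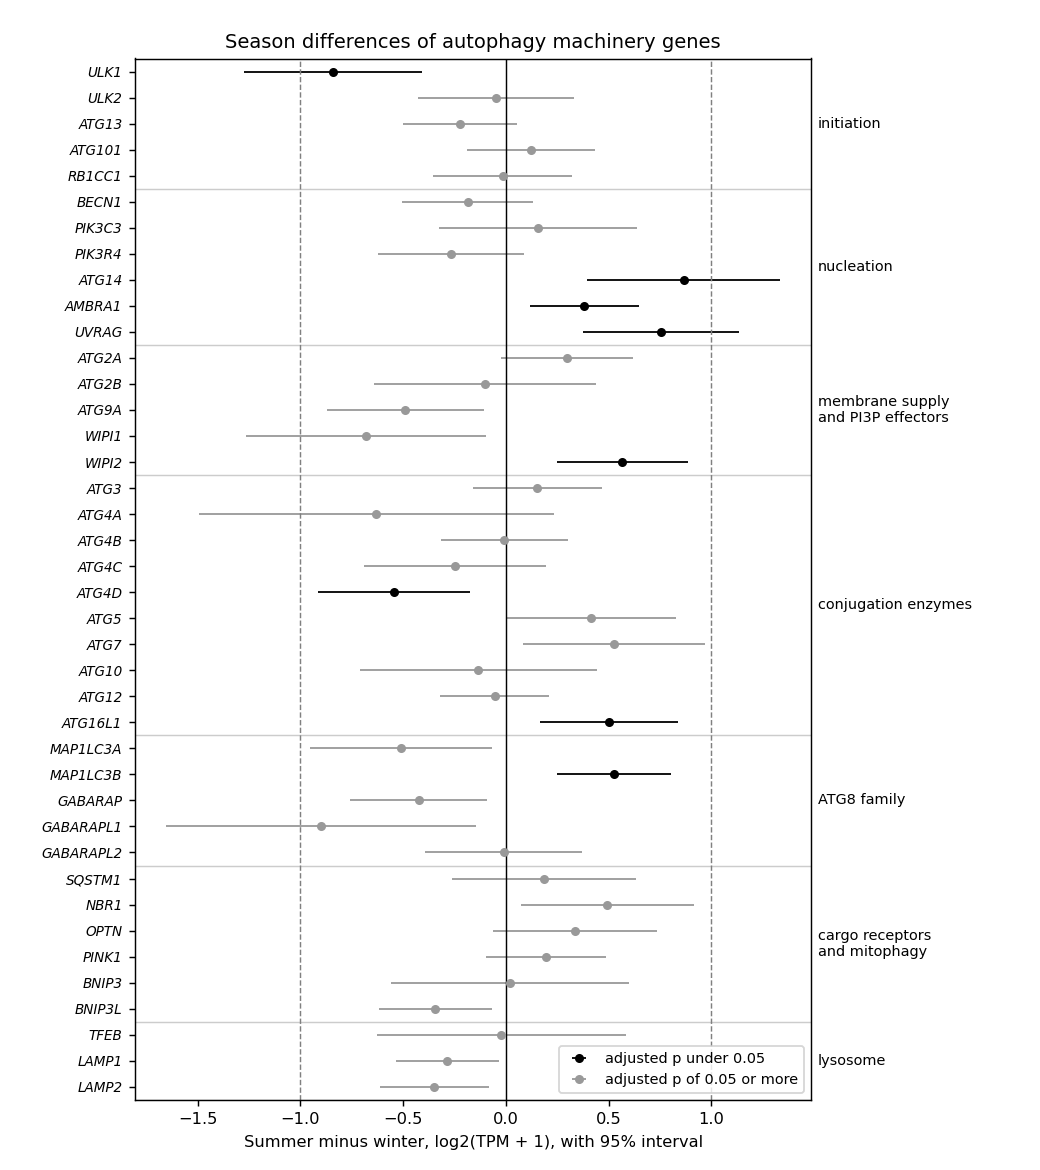
Log2 difference (summer minus winter, on log2(TPM + 1)) of each gene with its 95% interval, ordered by role. The differences run between -0.90 for GABARAPL1 and 0.86 for ATG14.

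Within the initiation complex the catalytic kinase ULK1 fell, while its partners gave no call. ULK1 had 18.8, 15.6, 17.6 and 19.9 TPM in summer libraries A, B, C and E, against 35.9, 23.1, 38.9 and 36.1 TPM in winter libraries A, B, D and E. Every summer library lay below every winter library, and winter B was the lowest of the winter values. The log2 difference was -0.84 (SE 0.20, limma adjusted p = 0.0131), and the call held with each library left out in turn. Without winter B the fall passed 2-fold.

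ULK2, the closest relative of ULK1, averaged 25.4 ± 4.17 TPM in summer and 26.1 ± 1.92 TPM in winter (SD, n = 4 each), with an interval of -0.43 to 0.33 for the log2 difference. RB1CC1, the scaffold also known as FIP200, averaged 38.3 ± 1.59 TPM in summer and 39.1 ± 6.11 TPM in winter. The regulatory subunit ATG13 had a log2 difference of -0.22 (limma adjusted p = 0.204). ATG101, which stabilises ATG13, was the most abundant of the complex, at 147 ± 12.5 TPM in summer oocytes and 136 ± 21.4 TPM in winter oocytes. The 5 genes summed to 291 to 307 TPM in summer and 303 to 348 TPM in winter, and these ranges overlap.

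Of the 6 nucleation genes, which act in or on the lipid kinase complexes, ATG14, UVRAG and AMBRA1 rose (50.0%, beside 14.9% of all genes). BECN1, PIK3C3 and PIK3R4 gave no call. ATG14, which directs the complex to autophagosome formation, had 34.3, 31.7, 35.7 and 46.0 TPM in summer A, B, C and E, against 22.9, 25.5, 18.1 and 13.9 TPM in winter A, B, D and E. The groups did not overlap, with summer E highest and winter E lowest. Its log2 difference of 0.86 (SE 0.21, limma adjusted p = 0.0164) was the largest rise in the list.

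UVRAG, the subunit that replaces ATG14 in the complex of endosomes and late autophagosomes, had 38.0, 31.5, 32.9 and 44.9 TPM in summer, against 20.5, 23.2, 23.3 and 18.3 TPM in winter, in the same library order. The lowest summer library was above the highest winter library. This was a log2 difference of 0.75 (SE 0.17, limma adjusted p = 0.0121), and the calls of ATG14 and UVRAG both held with each library left out in turn.

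AMBRA1, a BECN1-binding regulator, had 98.1, 111, 113 and 122 TPM in summer and 78.9, 89.6, 85.5 and 85.2 TPM in winter. The groups did not overlap, but the rise was modest, at 0.38 (SE 0.12, limma adjusted p = 0.0385). This call was lost without summer B (adjusted p = 0.0933), C (0.0913) or E (0.0961), and without winter A (0.0794), D (0.0841) or E (0.0630).

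BECN1, the scaffold of both complexes, averaged 43.4 ± 4.44 TPM in summer and 49.5 ± 5.87 TPM in winter, a log2 difference of -0.19 (limma adjusted p = 0.350). PIK3C3, the lipid kinase itself, averaged 21.3 ± 6.86 TPM in summer, with 31.3 TPM in summer E, and 18.4 ± 1.44 TPM in winter. Its regulatory partner PIK3R4 averaged 34.8 ± 6.18 TPM in summer and 41.7 ± 3.75 TPM in winter (limma adjusted p = 0.232). As a group the 6 nucleation genes summed to 258 to 331 TPM in summer and 227 to 246 TPM in winter, without overlap. AMBRA1 was the most abundant of the 6. The median log2 difference of the group was 0.27, beside -0.03 over all genes tested.

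Of the genes for membrane supply and for reading phosphatidylinositol 3-phosphate, WIPI2 rose. WIPI2, which binds that lipid and recruits ATG16L1, had 170, 181, 167 and 184 TPM in summer A, B, C and E, against 131, 139, 116 and 91.8 TPM in winter A, B, D and E. All summer values lay above all winter values, and winter E was the lowest. The log2 difference was 0.57 (SE 0.14, limma adjusted p = 0.0186), and the call was lost without summer B (adjusted p = 0.0548) or winter D (0.0515).

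The related WIPI1 leaned the other way, at 15.4 ± 5.59 TPM in summer oocytes and 24.7 ± 5.28 TPM in winter oocytes, with overlapping libraries and a log2 difference of -0.68 (limma adjusted p = 0.0769). It passed the test without summer E (adjusted p = 0.0389) or winter A (0.0482). ATG9A, the membrane protein of the vesicles that seed autophagosomes, had 13.6 to 17.6 TPM in summer and 19.5 to 25.0 TPM in winter. Its libraries did not overlap, and its log2 difference of -0.49 missed the threshold (limma adjusted p = 0.0589). ATG2A, a lipid transfer protein, lay at 29.7 to 33.9 TPM in summer oocytes and 23.9 to 28.0 TPM in winter oocytes, again without overlap and without a call (adjusted p = 0.146). Its paralogue ATG2B averaged 7.66 TPM in summer and 8.26 TPM in winter.

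The 10 conjugation enzymes were split: ATG16L1 rose and ATG4D fell. ATG16L1, which places the ATG12-ATG5 conjugate on the membrane, had 49.6, 56.3, 56.1 and 70.3 TPM in summer A, B, C and E, against 37.4, 46.7, 40.1 and 38.0 TPM in winter A, B, D and E. No winter library reached the lowest summer value. The log2 difference was 0.50 (SE 0.15, limma adjusted p = 0.0334), and the call was lost without summer B (adjusted p = 0.0763), C (0.0688) or E (0.0874), and without winter A (0.0672), D (0.0772) or E (0.0716).

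ATG4D, a protease of the family that trims ATG8 proteins, had 32.8, 39.9, 28.8 and 37.7 TPM in summer, against 54.5, 42.9, 46.4 and 61.3 TPM in winter, in the same order. The highest summer library, B, and the lowest winter library, also lettered B, were close together. Its log2 difference was -0.54 (SE 0.17, limma adjusted p = 0.0365). The call held only without winter B; with any other library left out the adjusted p was between 0.0555 and 0.0986.

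The other proteases gave no call. ATG4B averaged 72.7 ± 10.9 TPM in summer and 72.6 ± 4.69 TPM in winter, with an interval of -0.32 to 0.30 for the log2 difference. ATG4C averaged 10.4 TPM in summer and 12.5 TPM in winter. ATG4A was the least abundant member, at 0.515 TPM in summer A, 2.62 to 4.41 TPM in the other summer libraries and 3.20 to 5.03 TPM in winter.

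ATG12 had the smallest spread of all members over the 8 libraries, with a coefficient of variation of 4.43%, at 54.0 ± 2.64 TPM in summer oocytes and 56.1 ± 1.99 TPM in winter oocytes. Its conjugation partner ATG5 averaged 43.2 ± 4.45 TPM in summer and 32.7 ± 7.65 TPM in winter (limma adjusted p = 0.118). ATG7, the E1-like enzyme that activates both ATG12 and the ATG8 proteins, had 14.7 to 23.0 TPM in summer and 10.5 to 13.8 TPM in winter, without overlap, and missed the threshold (log2 difference 0.53, limma adjusted p = 0.0731). The E2-like enzymes ATG3, for ATG8 proteins, and ATG10, for ATG12, had log2 differences of 0.15 and -0.13.

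In the ATG8 family MAP1LC3B rose, while its 4 relatives had negative differences, none past the threshold. MAP1LC3B, the LC3 form most used as an autophagosome marker, had 106, 103, 103 and 114 TPM in summer A, B, C and E, against 77.8, 83.4, 69.9 and 64.2 TPM in winter A, B, D and E. The groups stood apart, and the summer libraries lay close together. Its log2 difference was 0.53 (SE 0.13, limma adjusted p = 0.0146), and the call held with each library left out in turn.

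MAP1LC3A, the other LC3 form among the members, had 121, 71.1, 71.3 and 72.1 TPM in summer and 104, 123, 98.3 and 147 TPM in winter. Summer A lay among the winter libraries, and the other 3 summer libraries lay below all of them. The log2 difference was -0.51 (limma adjusted p = 0.0810), and without summer A the adjusted p was 0.0155.

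Summer A stood highest of the summer libraries in GABARAP and GABARAPL1 as well. GABARAP had 330, 225, 240 and 236 TPM in summer, against 347, 305, 329 and 395 TPM in winter, a log2 difference of -0.42 (limma adjusted p = 0.0590). It passed the test without summer A (adjusted p = 0.0177) or winter B (0.0479). GABARAPL1 had 242, 134, 60.2 and 134 TPM in summer, against 292, 188, 216 and 272 TPM in winter. Its log2 difference of -0.90 (SE 0.34) was the most negative in the list but missed the threshold (limma adjusted p = 0.0727), and without summer A it was -1.21 (adjusted p = 0.0185), past 2-fold. GABARAPL2 averaged 195 ± 30.4 TPM in summer and 198 ± 37.9 TPM in winter. ATG8 genes resemble each other in sequence, and how reads shared between copies were assigned is not given in the sources used here.

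**Figure D3:**
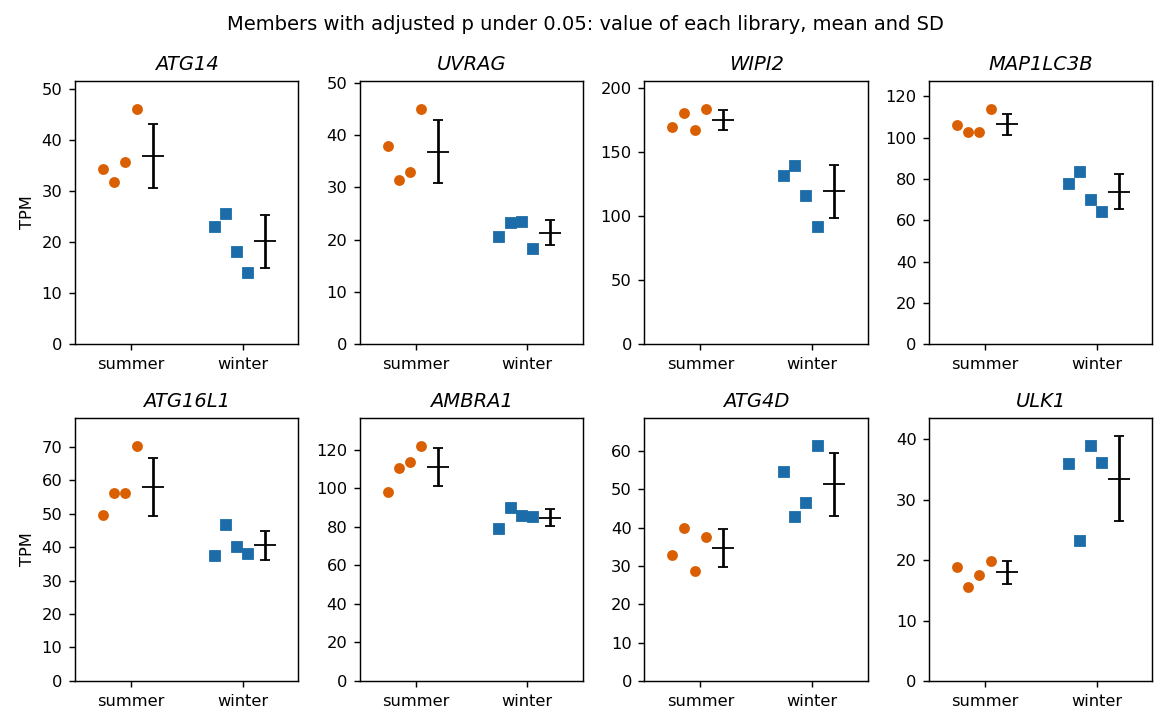
TPM per library of the 8 genes that passed the test, summer on the left and winter on the right of each panel, with the mean and SD. In all 8 the summer and winter libraries do not overlap; 6 are higher in summer and ULK1 and ATG4D are lower.

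The cargo receptors and mitophagy genes, which were among the most abundant members, gave no call. SQSTM1 (p62), which links ubiquitinated cargo to ATG8 proteins, had 649, 513, 423 and 488 TPM in summer A, B, C and E, against 656, 398, 440 and 357 TPM in winter A, B, D and E. The libraries lettered A were the highest of each season, and the groups overlapped (log2 difference 0.19, limma adjusted p = 0.509).

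NBR1, a receptor related to SQSTM1, averaged 150 ± 26.6 TPM in summer and 107 ± 23.0 TPM in winter (limma adjusted p = 0.0767). Without summer A, its lowest summer library, the adjusted p was 0.0323. OPTN, a ubiquitin-binding receptor, averaged 110 TPM in summer and 89.1 TPM in winter, and PINK1, the kinase that marks damaged mitochondria, averaged 52.9 TPM in summer and 46.1 TPM in winter.

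BNIP3L (NIX), a receptor on the mitochondrial outer membrane, had 230, 246, 266 and 250 TPM in summer, against 262, 336, 330 and 335 TPM in winter. Only winter A lay within the summer range, and without it the adjusted p was 0.0311, against 0.0646 with all libraries. The related BNIP3 averaged 349 ± 74.0 TPM in summer and 357 ± 115 TPM in winter, where winter A again stood lowest, at 188 TPM.

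LAMP1 and LAMP2, the lysosomal membrane genes among the members, did not pass the test. In both, every summer library lay below every winter library, as in 14.1% of all genes tested. LAMP1 had 295, 284, 288 and 294 TPM in summer A, B, C and E, against 331, 389, 372 and 328 TPM in winter A, B, D and E (log2 difference -0.28, limma adjusted p = 0.0830). LAMP2, which is needed for autophagosomes to fuse with lysosomes, had 92.0, 100.3, 81.8 and 88.5 TPM in summer, against 113, 123, 119 and 107 TPM in winter (log2 difference -0.35, limma adjusted p = 0.0527). TFEB, a transcription factor for lysosomal and autophagy genes, averaged 7.97 TPM in summer and 8.08 TPM in winter. The 3 genes summed to 380 to 395 TPM in summer and 443 to 522 TPM in winter.

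Ratios between partner genes were formed within each library, for pairs picked after the values were seen, and are given as a description with no test. The ratio of MAP1LC3B to MAP1LC3A was 0.877, 1.44, 1.44 and 1.58 in summer A, B, C and E, against 0.747, 0.677, 0.711 and 0.438 in winter A, B, D and E. MAP1LC3B exceeded MAP1LC3A in 3 summer libraries and in no winter library. The ratio of ATG14 to BECN1 was 0.715 to 1.09 in summer and 0.266 to 0.582 in winter, and that of UVRAG to BECN1 was 0.660 to 1.06 in summer and 0.350 to 0.530 in winter. ULK1 stood at 0.233 to 0.285 of ATG13 in summer and 0.287 to 0.458 in winter, where winter B nearly met the summer range. Relative to ULK2 the ULK1 values overlapped, at 0.618 to 0.958 in summer and 0.952 to 1.56 in winter. The ratios of ATG4B to ATG4D and of TFE3, a relative of TFEB, to TFEB also overlapped. Those of MAP1LC3B to GABARAP, WIPI2 to WIPI1 and ATG16L1 to ATG12 did not, and were higher in summer. The ratio of LAMP1 to LAMP2 overlapped between the seasons, with medians of 3.27 in summer and 3.09 in winter.

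**Figure D4:**
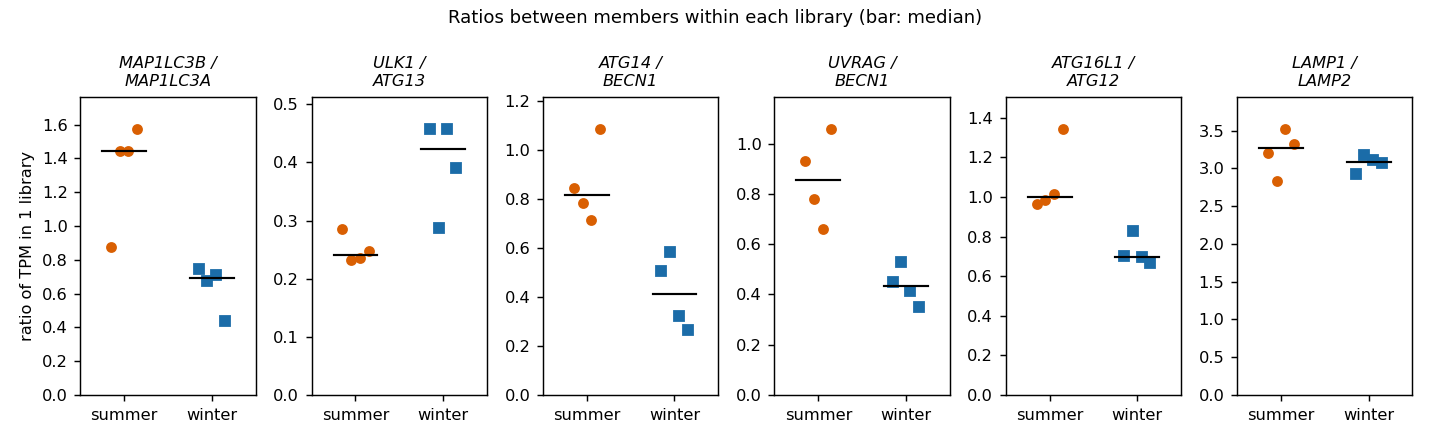
Ratio of TPM between partner genes in each library, summer left of winter, with the median as a bar. The ATG14 to BECN1 and UVRAG to BECN1 ratios do not overlap between the seasons, while the LAMP1 to LAMP2 ratio does.

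Another 124 genes around the pathway were read in 7 companion lists. Of these 12 rose (9.68%, beside 14.9% of all genes) and 24 fell (19.35%, beside 11.9%). With a 2-fold change also required 1 was higher and 6 lower, beside 4.4% and 5.17% of all genes. Of the 25 lysosomal hydrolases and membrane proteins 13 fell (52.0%, beside 11.9% of all genes) and the rest gave no call. The 25 had a median log2 difference of -0.68, beside -0.03 over all genes tested. They summed to 3119 to 3422 TPM in summer and 4403 to 5802 TPM in winter.

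CTSD, the aspartic protease cathepsin D, had 297, 221, 200.3 and 169 TPM in summer A, B, C and E, against 435, 962, 784 and 530 TPM in winter A, B, D and E. All summer libraries lay below all winter libraries, and the log2 difference was -1.57 (SE 0.26, limma adjusted p = 0.00500). CTSA, a lysosomal carboxypeptidase, averaged 57.9 ± 17.4 TPM in summer and 132 ± 28.5 TPM in winter, and TPP1, a tripeptidyl peptidase, averaged 20.4 TPM in summer and 43.2 TPM in winter. Both fell past 2-fold, with log2 differences of -1.20 and -1.09. LAPTM4B, the most abundant of the list, averaged 464 TPM in summer and 923 TPM in winter (log2 difference -0.94, limma adjusted p = 0.0116). The number of the 25 that fell past 2-fold was 3 with all libraries, 5 without summer A, 7 without winter A and 6 without winter B. Over all genes these numbers were 692, 688, 716 and 768. Theca and stroma markers were also lower in summer, by a median log2 difference of -2.62. For the cumulus and granulosa markers that median was -0.65, with all 15 differences negative and 1 called. Of the 3 leukocyte markers tested 1 fell, CD68, a lysosomal protein of macrophages. It had 0 to 1.53 TPM in summer oocytes and 2.46 to 15.2 TPM in winter oocytes. The other 2, CD3E and LCP1, had positive log2 differences (0.67 and 0.22) and gave no call. The part of these markers in the hydrolase values was not tested.

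Calls among the genes that control initiation were no more frequent than over all genes. The list held 29 genes for MTORC1 and AMPK, the kinases that restrain and promote initiation. Of these 4 rose (13.8%, beside 14.9% of all genes) and 1 fell (3.45%, beside 11.9%). PRKAG2, a regulatory subunit of AMPK, averaged 9.04 ± 4.14 TPM in summer and 36.3 ± 10.8 TPM in winter (limma adjusted p = 0.00573), and was the 1 gene of that list past 2-fold. RRAGA, a GTPase that brings MTORC1 to the lysosome and the most abundant of the list, had a log2 difference of 0.34 (limma adjusted p = 0.131).

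Of 18 other genes for autophagosome formation 1 rose (5.56%, beside 14.9% of all genes). It was ZFYVE1 (DFCP1), a marker of the membrane platform on which autophagosomes form, at 300.0 ± 32.3 TPM in summer oocytes and 158 ± 38.2 TPM in winter oocytes (log2 difference 0.95, limma adjusted p = 0.00663). Of 13 fusion genes 2 rose (15.4%, beside 14.9% of all genes), a share near the background. They were the SNARE proteins STX17 and SNAP29, which act together at the autophagosome and were named after their values were seen. STX17 averaged 60.8 TPM in summer and 33.8 TPM in winter, and SNAP29 averaged 122 TPM in summer and 72.9 TPM in winter. RAB7A, the late endosome GTPase and the most abundant fusion gene, gave no call (log2 difference 0.29, limma adjusted p = 0.152).

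Of 16 other cargo receptors 5 fell (31.25%, beside 11.9% of all genes) and the rest gave no call. RETREG1 (FAM134B), a receptor for the endoplasmic reticulum, averaged 2.87 TPM in summer and 7.04 TPM in winter (log2 difference -1.05, limma adjusted p = 0.0230), a call lost without summer C (adjusted p = 0.0603) or winter D (0.0700). PHB2, a mitochondrial inner membrane receptor and the most abundant of the list, had a log2 difference of 0.24 (limma adjusted p = 0.176).

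Of 16 subunits of the vacuolar ATPase, the pump that acidifies lysosomes, 4 rose (25.0%, beside 14.9% of all genes) and 3 fell (18.75%, beside 11.9%). ATP6V0C, the proteolipid of its membrane ring, rose past 2-fold from a low level, averaging 3.84 TPM in summer and 1.3 TPM in winter (limma adjusted p = 0.0234). That call was lost without summer B (adjusted p = 0.0700) or C (0.0555), or winter D (0.0633) or E (0.0612). ATP6V1B2, the most abundant subunit, averaged 213 TPM in summer and 160 TPM in winter (log2 difference 0.40, limma adjusted p = 0.0327). Its call was lost without summer B, C or E or winter A or D, at adjusted p between 0.0667 and 0.0868.

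The last list held 7 transcription factors related to TFEB, of the FOXO family or otherwise linked to autophagy genes. Of these 1 rose (14.3%, beside 14.9% of all genes) and 2 fell (28.6%, beside 11.9%). The gene that rose was TFE3, a relative of TFEB, named after its values were seen. It averaged 232 TPM in summer and 140 TPM in winter (log2 difference 0.72, limma adjusted p = 0.0168). That call was lost without summer B (adjusted p = 0.0515). MITF, another relative of TFEB, averaged 0.495 TPM in summer and 2.46 TPM in winter (log2 difference -1.12, limma adjusted p = 0.0345). Its call was lost without any of the 4 summer libraries or winter D, at adjusted p between 0.0521 and 0.0849. HIF1A, the oxygen-regulated factor that induces BNIP3 and the most abundant of the list, averaged 522 TPM in summer and 901 TPM in winter (log2 difference -0.74, limma adjusted p = 0.0243). That call was lost without summer C (adjusted p = 0.0646) or E (0.0608), or winter D (0.0720) or E (0.0568).

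**Figure D5:**
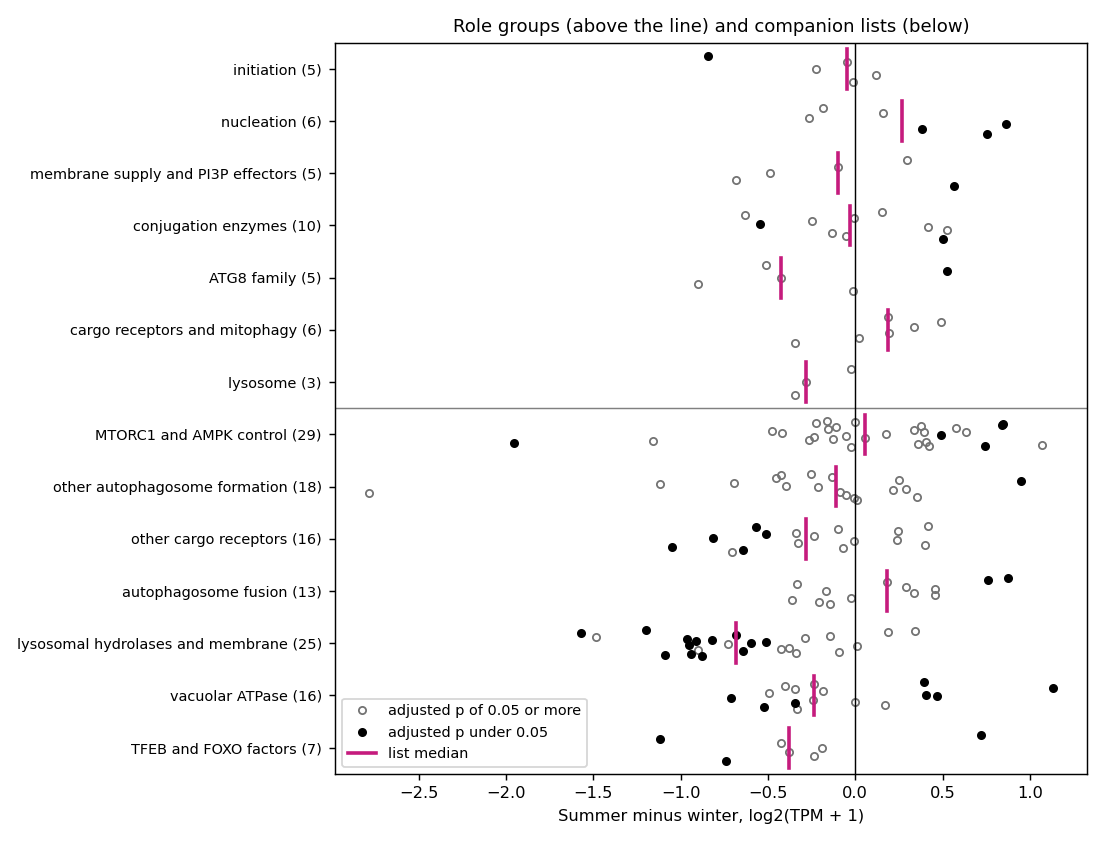
Log2 differences (summer minus winter) of the genes of each role group and companion list, with the median of each as a bar; points are genes, filled where the adjusted p was under 0.05. The lysosomal hydrolases and membrane proteins have the lowest median, -0.68, and the nucleation genes a median of 0.27.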

How the data were processed

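The sample titles assigned 4 libraries of pooled oocytes to summer and 4 to winter. The deposited TPM values were computed by the authors. CLC Genomics Workbench, with read trimming, mapping and trimmed-mean scaling, is described in the methods of the study, whereas bcl2fastq, Bowtie2 (version 2.2.2), DESeq2 and ARS-UCD1.2 (genome build) appear in the submitters' processing notes. Which route gave the table was not settled. TPM keeps no depth. Reads of near-identical copies may be shared, and strand was not considered.

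A gene was tested when its zFPKM exceeded -3 in all 4 libraries of a season. Tests used limma 3.58.1 in R 4.3.3, with a trend and season as term, on log2(TPM + 1), a scale that understates changes of low genes. P-values were adjusted by Benjamini-Hochberg over 13379 genes and read at 0.05, alone or with a log2 difference of at least 1. The test was checked on simulated data. Members and lists were chosen with earlier results of these data known. Every member is reported. Of each companion list, up to 4 genes past both thresholds and the most abundant gene are named, and STX17, SNAP29 and TFE3 were added after their values were seen. Alternatives were a pseudocount of 0.1, other filters, quantile and median-ratio scaling, robust or untrended moderation, a library-letter block, and each library left out. No sequences or coordinates are printed.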

Additional observations from a re-analysis of the deposited data

Results flagged for a closer look

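In 6 of 80 groups (40 genes in 2 seasons) 1 library stood far from the other 3 by Dixon's test at the 95% level, where chance gives about 1 in 20 groups. Summer A was high in MAP1LC3A, at 120.8 TPM against 71.1 to 72.1 TPM in the other summer libraries, and low in ATG5, at 36.6 TPM against 44.9 to 46.2 TPM. Summer E was low in ATG3, at 89.7 TPM against 102.7 to 104.8 TPM. Winter B was low in ULK1, at 23.1 TPM against 35.9 to 38.9 TPM in the other winter libraries. Winter A was low in both mitophagy receptors, with BNIP3 at 187.7 TPM against 390.6 to 436.1 TPM and BNIP3L at 262.4 TPM against 330.3 to 335.8 TPM.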

How the results depend on the processing

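Most differences kept their direction and their side of the threshold under another pseudocount, other filters and robust moderation. Without the trend AMBRA1 (adjusted p = 0.0742), ATG16L1 (0.0509) and ATG4D (0.0524) missed the threshold in limma and ATG9A passed it (0.0457), and quantile normalization lost AMBRA1 (0.0940). Quantile normalization gave 7 members lower at an adjusted p under 0.05 and median-ratio scaling 6, against 2. Quantile normalization reversed the log2 differences of ATG101 (-0.024), ATG2B (0.056), ATG10 (0.043), BNIP3 (-0.038) and TFEB (0.12), and median-ratio scaling that of BNIP3 (-0.022), none of them called. The cause was not tested.

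The study sampled the same cows in both seasons and treated the replicates as corresponding across them, since it left out a summer replicate together with its winter counterpart. The titles, with a summer C and a winter D but no partner for either, do not show which letters correspond. Deviations from the season means correlated at 0.049 for letter A, 0.14 for B and 0.20 for E across genes. Each of these 6 libraries correlated best with its own letter, a hint from the data. Summer C and winter D, which bear different letters, correlated best with each other, at 0.055. With the letter as a replicate block, of which 3 are shared between the seasons, limma gave 0 members higher and 0 lower (4 and 2 at an unadjusted p under 0.05, smallest adjusted p 0.0874), 2 hydrolases and lysosomal membrane genes were lower, against 13, and over all genes 179 were called higher and 296 lower, against 589 and 692. At an adjusted p under 0.05 alone the block gave 199 higher and 313 lower, against 1995 and 1594. The block reversed RB1CC1 (0.021), ATG4B (0.074), GABARAPL2 (0.12) and BNIP3 (-0.018).

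With each library left out in turn, 3 to 7 members were higher and 1 to 4 lower, and 0 to 1 was called lower at 2-fold. Over all genes 1082 to 2260 were higher and 889 to 1591 lower at an adjusted p under 0.05. Of the lysosomal hydrolases and membrane genes 2 to 7 fell past 2-fold. At an adjusted p under 0.05 alone 9 to 14 were lower and 0 to 1 higher, the 1 being CTSB without winter B. The median member difference ran between -0.082 and -0.00024. Differences of genes without a call changed sign: ULK2 (-0.11 to 0.066), RB1CC1 (-0.115 to 0.057), PIK3C3 (-0.037 to 0.27), ATG2B (-0.22 to 0.0063), ATG4B (-0.094 to 0.054), GABARAPL2 (-0.15 to 0.074), BNIP3 (-0.26 to 0.14) and TFEB (-0.17 to 0.16). Over all genes, 270 were called higher without winter E and 983 without winter B, against 589. With an unknown depth, differences of members under 10 TPM are the least certain.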
